A study of Homo sapiens with 8 samples.

Results

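The genes described here are 37 genes of glycolysis and of the hypoxia response in HCT-116, a human colorectal cancer cell line. They were chosen by name, and all 37 were found among the 20030 rows listed for each library. They comprised 16 glycolytic enzymes and lactate dehydrogenases, 3 sugar and lactate transporters, 4 kinases that set the flux, 4 genes of hypoxia-inducible factor (HIF) and its prolyl hydroxylases, and 10 other hypoxia response genes. The study asked how RNA levels in these cells change when HHEX, a homeobox transcription factor, or the YAP/TAZ coactivators and the TEAD factors of the Hippo pathway are knocked down. RNA was sequenced from 8 libraries of cells transfected with small interfering RNA: 2 with the control siRNA (siNC), 3 with siRNA against *HHEX* (siHHEX), 2 with siRNA against *YAP1* and *WWTR1*, the gene of TAZ (siYAP/TAZ), and 1 with siRNA against *TEAD1*, *TEAD2*, *TEAD3* and *TEAD4* (siTEAD1/2/3/4). All libraries came from the same line with no other treatment named. The methods list a separately numbered siRNA for each numbered siHHEX and siYAP/TAZ library, so the replicates of a knockdown were separate transfections with different siRNAs. The labels do not say whether the siNC libraries were separate cultures, and p-values measure the spread between these libraries.

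Glycolysis breaks glucose down to pyruvate in the cytosol. Hexokinase traps glucose, phosphofructokinase commits it to the pathway, and lactate dehydrogenase turns pyruvate into lactate, which leaves the cell through monocarboxylate transporters. The HIF factor is a pair of HIF-1α (*HIF1A*) and ARNT. In the presence of oxygen HIF-1α is degraded after hydroxylation by the EGLN enzymes. Otherwise the pair binds hypoxia response elements near many glycolytic genes and near genes such as *VEGFA*, *CA9* and *BNIP3*. Colorectal cancer cells are known for high glycolytic activity even in oxygen.

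Values are given as FPKM, sequenced fragments divided by transcript length and by the size of the library. In bulk RNA fewer cells and less RNA per cell cannot be told apart. The number of reads was unknown. Judged by the steps between low values, relative depths lay between 0.923 and 1.09, with siNC 1 set to 1. Pearson's r over tested genes (genes are not replicates) was 0.997 between the siNC libraries, 0.981 to 0.988 between siHHEX libraries and 0.984 between the siYAP/TAZ libraries. A test by limma on log2(FPKM + 1) was made for the 10677 genes that reached 1 FPKM in 2 or more libraries, 36 of the 37 among them. The exception was *SLC2A3*. A gene is called higher or lower at a Benjamini-Hochberg adjusted p under 0.05 over all tested genes.

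The knockdown targets were read first. *HHEX* was at 8.60 and 9.06 FPKM in siNC and at 3.25, 3.54 and 1.85 FPKM in siHHEX 1, 2 and 3, with no overlap (log2 change -1.37, adjusted p = 0.0054). *WWTR1* was at 6.80 and 6.72 FPKM in siNC and 2.64 and 2.58 FPKM in siYAP/TAZ (log2 change -1.10, adjusted p = 0.0156). *YAP1* was at 20.2 and 19.7 FPKM in siNC, 6.90 and 8.39 FPKM in siYAP/TAZ, and 5.77, 17.4 and 6.93 FPKM in siHHEX 1, 2 and 3. The libraries siHHEX 1 and 3 thus had *YAP1* values at the siYAP/TAZ level, whereas siHHEX 2 was close to siNC. By limma *YAP1* was called lower in siHHEX (log2 change -1.07, adjusted p = 0.0429) and missed the threshold in siYAP/TAZ (-1.28, adjusted p = 0.0681). With GC content and length corrected for, it was not called in siHHEX (-0.76, adjusted p = 0.161) and was called in siYAP/TAZ (-1.40, adjusted p = 0.035). Other targets moved in knockdowns not directed at them. *HHEX* was at 4.80 and 7.12 FPKM in siYAP/TAZ, below both siNC values but not called by limma (log2 change -0.52, adjusted p = 0.196). Its part in the contrast of siHHEX with siYAP/TAZ was not tested. *TEAD1* was at 6.99, 10.2 and 5.30 FPKM in siHHEX 1, 2 and 3, around its level in siTEAD1/2/3/4, and was called lower (log2 change -1.25, adjusted p = 0.00641, and -0.91, adjusted p = 0.0189 once corrected). *TEAD2* was called higher in siHHEX (0.78, adjusted p = 0.00709), though not once corrected (0.47, adjusted p = 0.0739), and *TEAD4* lower in siYAP/TAZ (-0.63, adjusted p = 0.025). In siTEAD1/2/3/4, *TEAD1* was at 9.02 FPKM against 18.3 and 19.0 FPKM in siNC, *TEAD2* at 2.73 FPKM against 4.10 and 3.47 FPKM, and *TEAD4* at 5.56 FPKM against 20.3 and 21.3 FPKM. Per the methods, 1 siRNA was directed at *TEAD1*, *TEAD3* and *TEAD4* together and another at *TEAD2*. *TEAD3* went against its label, at 9.08 FPKM in the library labelled siTEAD1/2/3/4 and 7.36 and 6.99 FPKM in siNC. The line was read as epithelial by its markers. All 6 epithelial markers were at or above 8.16 FPKM in every library and *KRT8* was the most abundant, at up to 1757 FPKM. Of 5 fibroblast markers all but *COL1A1*, at up to 2.04 FPKM, were under 1 FPKM in every library. All 4 endothelial markers were at most 0.133 FPKM. Of 4 blood markers all but *CD68*, at 3.52 to 7.33 FPKM, were under 1 FPKM, and *HBB* was listed at 0 in every library. The epithelial markers summed to 3411 and 3559 FPKM in siNC, 3167, 3483 and 3717 FPKM in siHHEX 1, 2 and 3, 2107 and 2033 FPKM in siYAP/TAZ and 2766 FPKM in siTEAD1/2/3/4. These sums were lower in siYAP/TAZ than in every other library, and their part in the siYAP/TAZ results was not tested. The lower sum was that of keratins, with *KRT8* at 1591 and 1707 FPKM in siNC and 898 and 897 FPKM in siYAP/TAZ, and *KRT18* at 900.5 and 917 FPKM against 376 and 404 FPKM. *CLDN4* went the other way, from 40.5 and 45.5 FPKM to 80.7 and 60.2 FPKM, *CDH1* was at 9.16 and 9.52 FPKM in siNC and 15.7 and 8.76 FPKM in siYAP/TAZ, and *EPCAM* at 174 and 162 FPKM and 148 and 157 FPKM.

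The 37 genes together made up 1.78% and 1.80% of all FPKM in siNC, 1.86%, 1.78% and 1.91% in siHHEX 1, 2 and 3, 1.55% and 1.63% in siYAP/TAZ and 1.69% in siTEAD1/2/3/4. The share was thus lowest in both siYAP/TAZ libraries. In siNC, *GAPDH*, the dehydrogenase of the middle of the pathway, was the most abundant, at 2460 ± 10.6 FPKM (SD, n = 2). *ENO1*, the main enolase, was at 788 ± 20.2 FPKM, *LDHA* at 581 ± 11.5 FPKM and *TPI1*, triosephosphate isomerase, at 555 ± 6.12 FPKM (SD, n = 2 each). The hexokinases and *PFKL*, the liver-type phosphofructokinase, were near 10 to 15 FPKM. The 10 other hypoxia response genes were per length far below *GAPDH*, *ENO1*, *LDHA* and *TPI1*, from *ANKRD37*, an ankyrin repeat gene, at 0.493 ± 0.379 FPKM to *ADM*, adrenomedullin, at 26.1 ± 1.08 FPKM (SD, n = 2 each). Abundant glycolytic genes such as *GAPDH*, *PGK1*, *ENO1*, *LDHA*, *LDHB*, *ALDOA*, *TPI1* and *PGAM1* have near-identical processed pseudogenes with which they may share reads, so their values are uncertain to that extent. The counting is not stated to use strand, so *HIF1A* cannot be told apart from transcripts antisense to it.

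**Figure D1:**
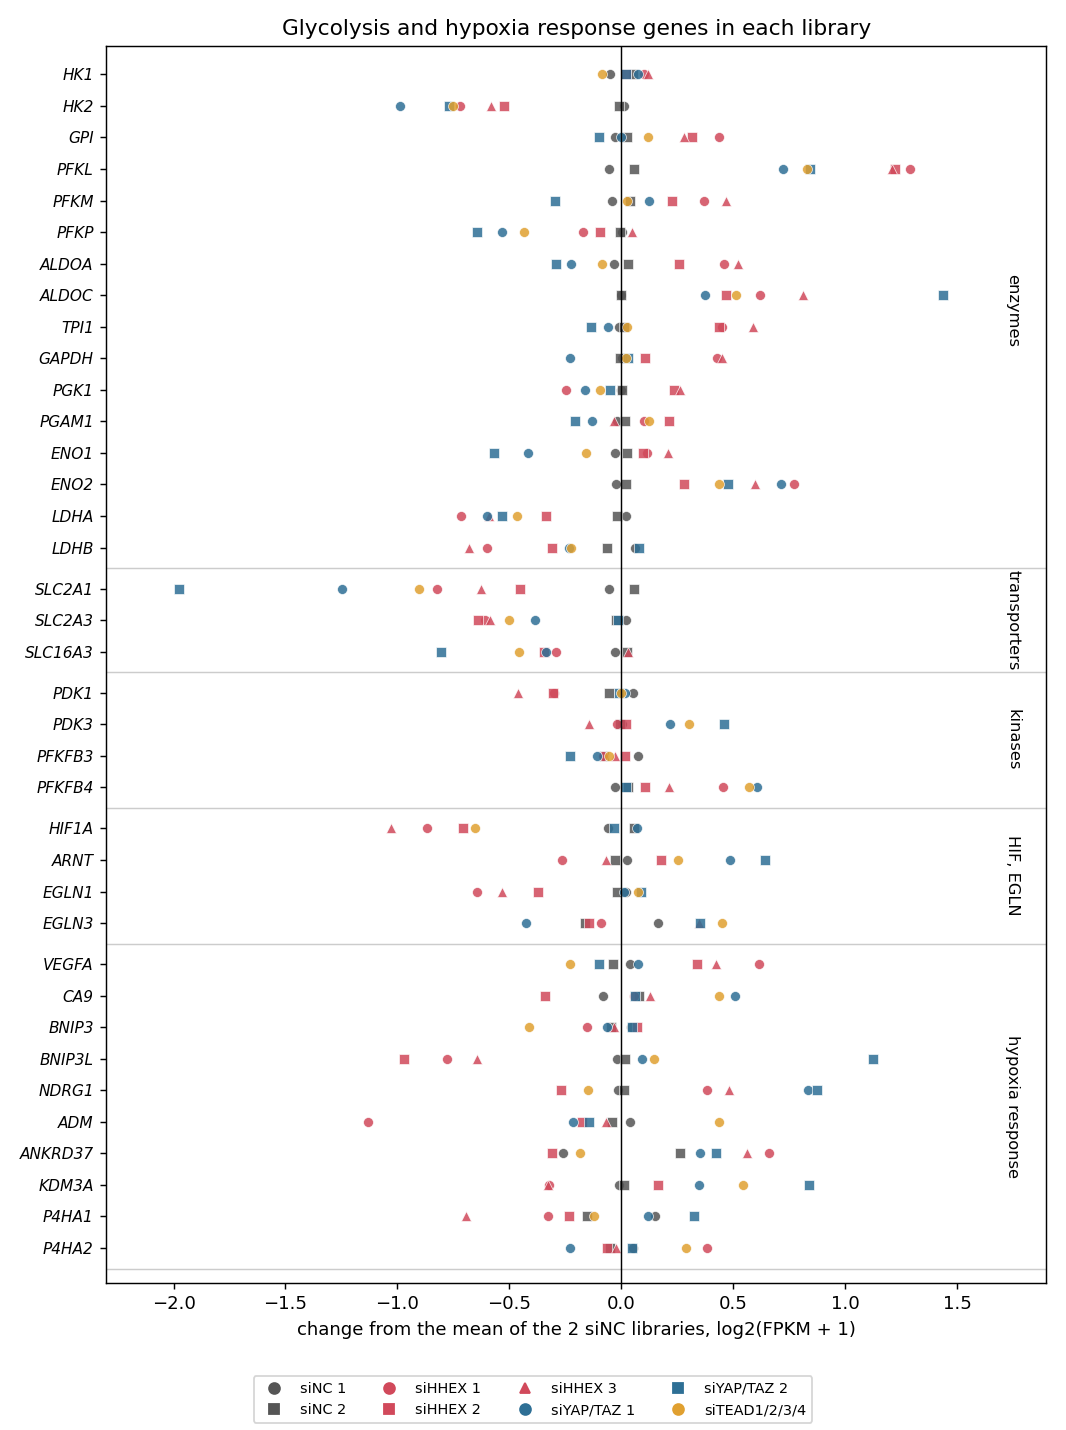
Change of each gene from the siNC mean on the log2(FPKM + 1) scale (x axis) in each of the 8 libraries, with the genes grouped by role (y axis). Each point is 1 library, colours are groups and shapes are replicates. *PFKL* lies to the right of 0 in every knockdown library, and *SLC2A1*, *HK2* and *LDHA* lie to the left of 0 in every knockdown library.

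Promoter sequence was read for the genes that the results turn on, to show where the letters of a hypoxia response element lie. The windows are RefSeq sequence of GRCh38.p14, 250 bases before to 50 bases after a gene's start, and 33 of the 37 genes had one. The cores searched were ACGTG and GCGTG, on both strands, and the letters CACGTG hold a match on each strand. At least 1 of these cores was in 23 of 33 windows (69.7%), against 65.0% of the windows of the tested genes and 48.4% of all 35093 windows. ACGTG alone was in 14 of 33 (42.4%, against 27.6% of tested genes) and GCGTG in 15 of 33 (45.5%, against 52.5%). The letters GGAATG, a core that TEAD factors bind, were in 3 of 33 windows (9.09%, against 10.6%), those of *PGAM1*, *ENO1* and *P4HA2*. These are matches of letters and not sites. Each line below gives a stretch around 1 match on the strand of the gene, with the match in capitals (its reverse complement where the match is on the other strand).
HK2, chr2:74834067-74834095, plus strand: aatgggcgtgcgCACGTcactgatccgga
LDHA, chr11:18394465-18394493, plus strand: agcccgactcacACGTGggttcccgcacg
ALDOA, chr16:30064089-30064117, plus strand: ccttcccctccaCACGTcaacgattctat
PFKL, chr21:44299877-44299905, plus strand: tgctcagggcccGCGTGacattgcacagg
SLC2A1, chr1:42958827-42958855, minus strand: tagcaacagcgaGCGTGccggtcgctagt
HIF1A, chr14:61695297-61695325, plus strand: tggctgagagcgGCGTGggctggggtggg
EGLN1, chr1:231422284-231422312, minus strand: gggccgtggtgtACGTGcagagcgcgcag
ENO1, chr1:8878789-8878818, minus strand: ccgggaggtgagGGAATGagtgacggctct
The first base of the match lay 48 bases before the gene start in *HK2*, 86 in *LDHA*, 178 in *ALDOA*, 164 in *PFKL*, 204 in *HIF1A*, 13 in *EGLN1* and 120 in *ENO1*, and 25 bases after it in *SLC2A1*. *TPI1*, *PFKP*, *PFKM*, *HK1*, *ARNT*, *EGLN3*, *PDK1* and *SLC16A3* had none of the 3 motifs in their windows.

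After knockdown of *HHEX*, the glycolytic genes did not move as 1 block. The liver-type phosphofructokinase *PFKL* rose most, to 249% of the siNC mean, and *TPI1*, *ENO2*, *ALDOA*, *GPI* and *VEGFA* rose by smaller amounts. The glucose transporter *SLC2A1*, the hexokinase *HK2*, both lactate dehydrogenases, *HIF1A*, its hydroxylase *EGLN1*, *BNIP3L* and *PDK1* fell. In all, 6 of the 36 tested genes rose (16.7%), where 16.0% of all tested genes did, and 8 fell (22.2%), where 16.9% of all tested genes did, so the counts were near those of all genes. The median log2 change was 0.0041 over the 36 genes and -0.0055 over all tested genes.

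Among the glycolytic enzymes, 5 of 16 rose and 3 fell. *PFKL* (GRCh38, chromosome 21, 44300051 to 44327376) was at 10.04 and 10.9 FPKM in siNC and at 27.1, 25.8 and 25.6 FPKM in siHHEX 1, 2 and 3. The siHHEX libraries were close to each other and far above siNC, at a log2 change of 1.24 (standard error 0.114, adjusted p = 0.00201). Past a 2-fold change on the log2(FPKM + 1) scale with an unadjusted p under 0.05, as a second rule, it was 1 gene of the 36 higher in siHHEX (0.702% of all tested genes) beside 0 lower (0.927%, 9 of the 36 lower at an unadjusted p under 0.05 by limma). In plain FPKM *BNIP3L*, at 49.8% of the siNC mean, would pass it too. *TPI1* was at 551 and 559.6 FPKM in siNC and 759.5, 752 and 835 FPKM in siHHEX, a log2 change of 0.49 (standard error 0.0862, adjusted p = 0.00712). *ALDOA*, the main aldolase, was at 284.5 and 298 FPKM in siNC and 399.9, 348 and 419 FPKM in siHHEX (log2 change 0.41, adjusted p = 0.0185). Neither gene had overlapping groups, though both were picked as called and the share of all tested genes without overlap was not counted. *ENO2*, the neuronal-type enolase, was at 6.61 and 6.83 FPKM in siNC and 12.2, 8.39 and 10.7 FPKM in siHHEX (log2 change 0.55, adjusted p = 0.0303). *GPI*, which converts glucose 6-phosphate to fructose 6-phosphate, was at 44.9 and 46.7 FPKM in siNC and 62.4, 57.2 and 55.9 FPKM in siHHEX (log2 change 0.34, adjusted p = 0.0379). *GAPDH* came close to the threshold, at 2468 and 2453 FPKM in siNC and 3308, 2652 and 3357 FPKM in siHHEX (log2 change 0.33, adjusted p = 0.0558).

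The enzymes that fell were the hexokinase *HK2* and both lactate dehydrogenases. *HK2*, on chromosome 2 from 74834127 to 74893359, was at 15.4 and 15.1 FPKM in siNC and 8.84, 10.3 and 9.82 FPKM in siHHEX (log2 change -0.61, standard error 0.127, adjusted p = 0.0109). *LDHA*, on chromosome 11 from 18394560 to 18408425, was at 589 and 573 FPKM in siNC and 354, 461 and 386 FPKM in siHHEX (log2 change -0.55, standard error 0.116, adjusted p = 0.0112). *LDHB* was at 370.01 and 339 FPKM in siNC and 234, 285 and 221 FPKM in siHHEX (log2 change -0.53, adjusted p = 0.0201). For each of these 3 genes, also picked as called, every siHHEX value lay below both siNC values. The other hexokinase, *HK1*, had values of 9.61 and 10.4 FPKM in siNC and 10.8, 10.1 and 10.9 FPKM in siHHEX (log2 change 0.08, 95% interval -0.18 to 0.34).

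Of the transporters, *SLC2A1* (GLUT1), on chromosome 1 from 42925353 to 42958893, was at 184 and 198 FPKM in siNC and 107, 139 and 123 FPKM in siHHEX. In siHHEX it averaged 64.5% of its siNC level, a log2 change of -0.63 (standard error 0.197, adjusted p = 0.0366). *SLC16A3*, the lactate exporter MCT4, had siHHEX values of 147, 141 and 184 FPKM that overlapped the siNC values of 177 and 183.5 FPKM. *SLC2A3* (GLUT3) was too low to be tested, at 0.932 and 0.876 FPKM in siNC and 0.250, 0.222 and 0.268 FPKM in siHHEX. Of the 4 kinases only *PDK1*, which blocks the entry of pyruvate into the citric acid cycle, was called, at 1.26 and 1.09 FPKM in siNC and 0.766, 0.759 and 0.579 FPKM in siHHEX (log2 change -0.36, adjusted p = 0.0488), a direction that turned with GC content corrected for.

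Of *HIF1A*, *ARNT*, *EGLN1* and *EGLN3*, 2 were called in siHHEX, both lower. *HIF1A*, on chromosome 14 from 61695513 to 61748259, was at 31.1 and 33.7 FPKM in siNC and 17.3, 19.4 and 15.3 FPKM in siHHEX, an average of 53.6% of its siNC level. No values overlapped, and the log2 change was -0.87 (standard error 0.129, adjusted p = 0.0047). *EGLN1* (PHD2), the main hydroxylase of HIF-1α in oxygen, was at 10.3 and 9.98 FPKM in siNC and 6.13, 7.60 and 6.70 FPKM in siHHEX (log2 change -0.52, adjusted p = 0.0172). *ARNT* and *EGLN3* were not called, with log2 changes of -0.05 and 0.04. Among the 10 other hypoxia response genes, 1 rose and 1 fell. *BNIP3L*, a mitophagy receptor, was at 5.23 and 5.38 FPKM in siNC and 2.67, 2.21 and 3.03 FPKM in siHHEX (log2 change -0.80, adjusted p = 0.0405). *VEGFA*, the vascular growth factor, moved the other way, at 7.07 and 6.66 FPKM in siNC and 11.1, 8.94 and 9.54 FPKM in siHHEX (log2 change 0.46, adjusted p = 0.0294). The remaining HIF targets gave log2 changes from -0.46 for *ADM* to 0.30 for *ANKRD37*. In *ADM* the value of siHHEX 1, 11.4 FPKM, was far below those of siHHEX 2 and 3, 23.0 and 24.8 FPKM, which in turn were just below the siNC values of 26.8 and 25.3 FPKM.

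**Figure D2:**
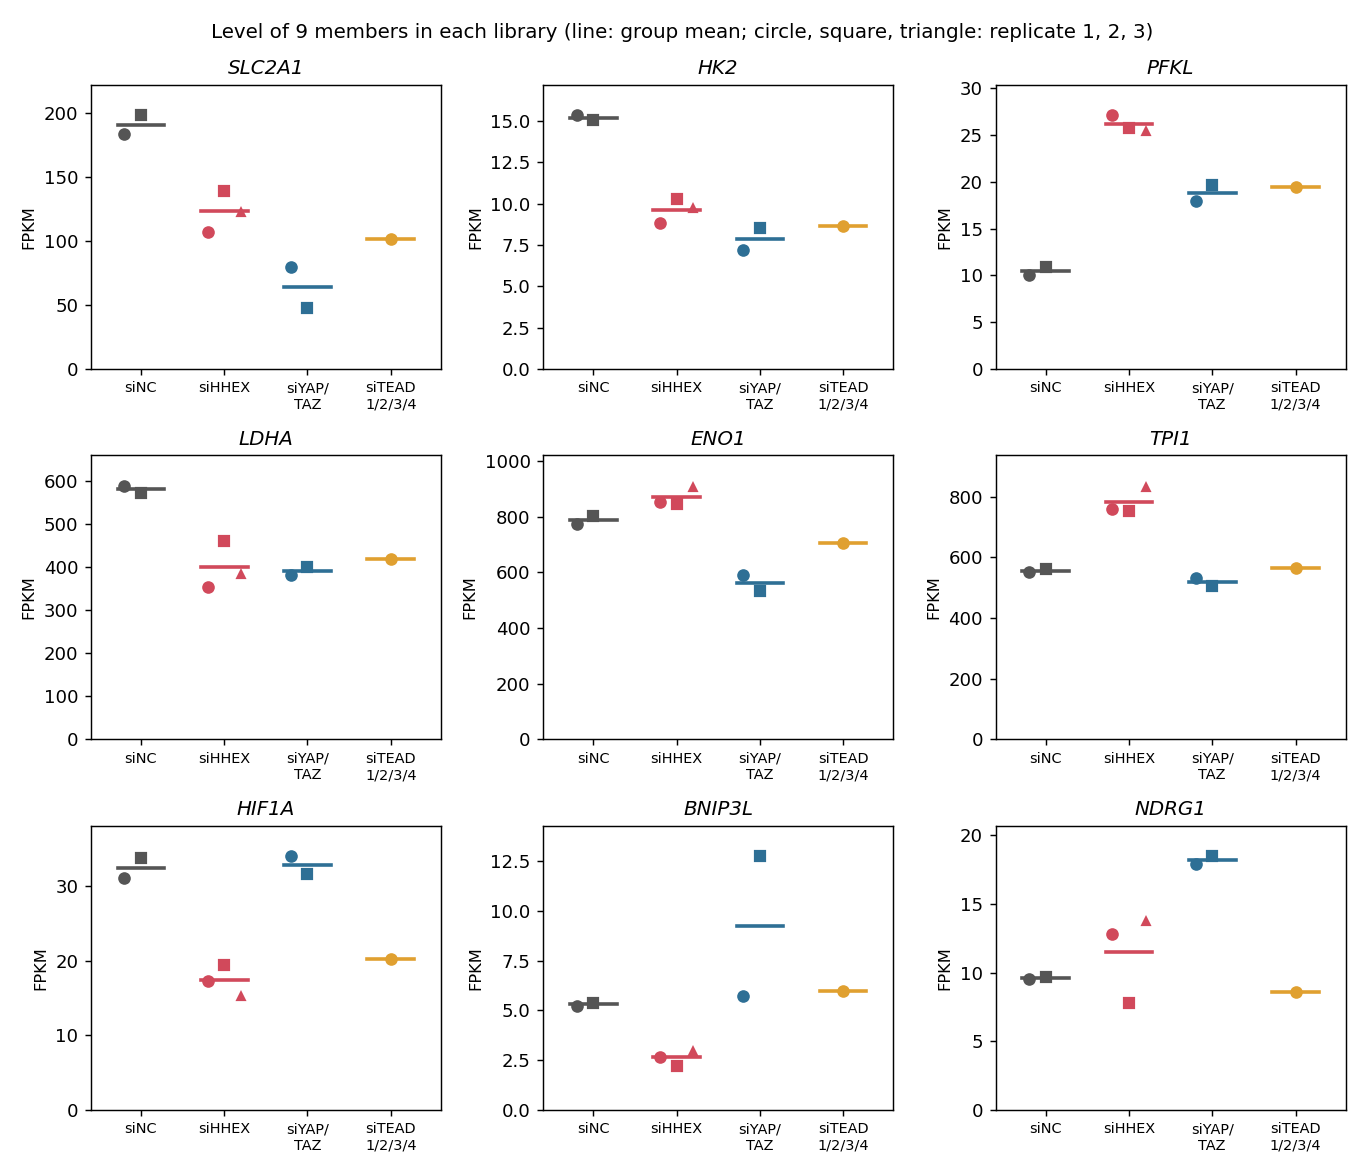
FPKM (y axis, from 0) of 9 genes in each library (points), by group (x axis). Lines are group means. *PFKL* was at 25.6 to 27.1 FPKM in siHHEX against 10.04 and 10.9 FPKM in siNC. *HIF1A* was lower in siHHEX and siTEAD1/2/3/4 and at the siNC level in siYAP/TAZ.

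The direction of these changes in siHHEX followed the GC content of the transcript. Of the 21 tested genes with a GC content over 50%, 6 rose and 2 (*SLC2A1* and *HK2*) fell, and of the 15 genes at or under 50%, 0 rose and 6 fell. The same split stood across all tested genes, where 31.1% of the GC-rich genes rose and 1.64% fell, and 2.39% of the GC-poor genes rose and 30.9% fell. Across the 10617 tested genes with an annotated transcript, the Spearman coefficient of GC content with the log2 change was 0.679, 0.598 and 0.755 in siHHEX 1, 2 and 3. Across the 36 genes it was 0.503, 0.316 and 0.602. Genes of 1 library share its depth and base composition, so these are descriptions. After each library was corrected for GC content and length, *PFKL* was called higher (log2 change 0.89, adjusted p = 0.00841) and *HK2*, *HIF1A* and *SLC16A3* lower (log2 changes -0.59, -0.44 and -0.58, adjusted p = 0.0252, 0.0427 and 0.0375), against 3.56% of genes higher and 3.19% lower. *TPI1* and *ALDOA* had log2 changes of 0.20 and 0.0044 after the correction, and *LDHA* and *BNIP3L* of -0.26 and -0.34, none of them called. The calls of *EGLN1* (-0.33, adjusted p = 0.0792), *GPI* (0.25, adjusted p = 0.143) and *ENO2* (0.36, adjusted p = 0.16) were lost as well, and *PDK1* turned to 0.073 (adjusted p = 0.741). Also lost were the calls of *SLC2A1* (-0.76, adjusted p = 0.0515, against -0.63 before) and *VEGFA* (0.42, adjusted p = 0.075, against 0.46 before). So was that of *LDHB* (-0.41, adjusted p = 0.0541, against -0.53 before). Fewer genes were called with 1 control library. Without siNC 1, and likewise without siNC 2, only *PFKL* was called higher and 0 genes lower by limma (5 and 7 genes without siNC 1, and 4 and 7 without siNC 2, at an unadjusted p under 0.05). The log2 change of *HK2* was then -0.60 and -0.62, that of *TPI1* 0.48 and 0.50 and that of *HIF1A* -0.93 and -0.81. Without siHHEX 1 the counts were 2 higher and 4 lower, and without siHHEX 2, the library whose *YAP1* was near siNC, 9 higher and 8 lower. Without siHHEX 3 there were 5 lower.

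**Figure D3:**
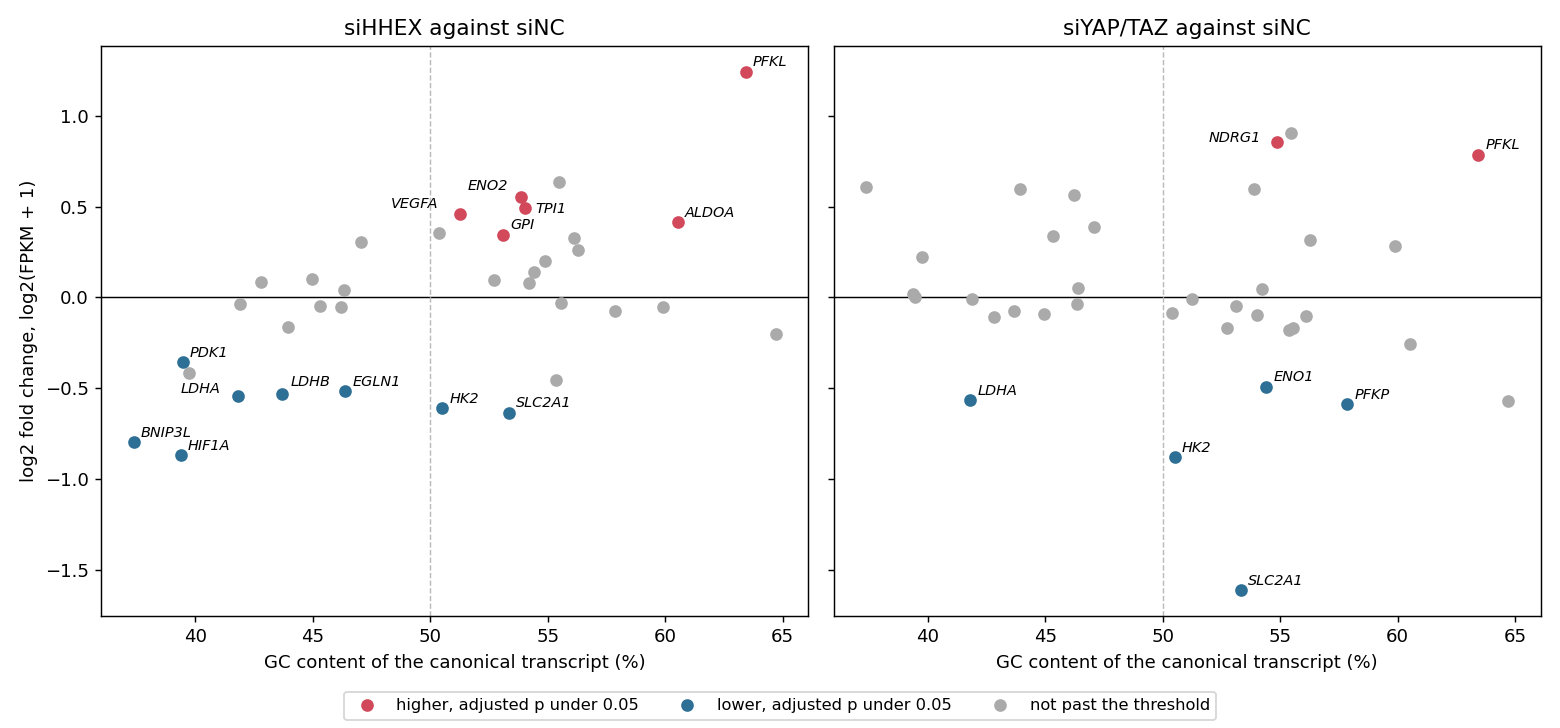
Log2 change on the log2(FPKM + 1) scale (y axis) against the GC content of the canonical transcript (x axis) for the 36 tested genes, in siHHEX (left) and siYAP/TAZ (right), with called genes coloured and named. In siHHEX, the 6 genes that rose all lie right of the dashed line at 50%, and 6 of the 8 that fell lie left of it.

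After knockdown of YAP and TAZ, the glucose transporter *SLC2A1* fell to 33.4% of the siNC mean, the largest change in either direction among the 36 genes. *HK2*, *PFKP*, *LDHA* and *ENO1* fell as well, whereas *PFKL* and *NDRG1* rose. In all, 2 of 36 genes rose (5.56%), where 6.15% of all tested genes did, and 5 fell (13.9%), where 2.13% of all tested genes did. Of the 542 tested genes over 100 FPKM in siNC, 8.49% were called lower, and 3 of the 10 glycolytic and hypoxia genes at that level fell. The median log2 change was -0.21 over these 10 and -0.11 over the 542.

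*SLC2A1* was at 184 and 198 FPKM in siNC and 79.8 and 47.8 FPKM in siYAP/TAZ, a log2 change of -1.61 (standard error 0.216, adjusted p = 0.00667). By the 2-fold rule it was 1 gene of the 36 lower (0.431% of all tested genes) beside 0 higher (1.14%, 7 at an unadjusted p under 0.05 by limma), while in plain FPKM *ALDOC*, at 208% of the siNC mean, would pass it. *SLC16A3* was at 177 and 183.5 FPKM in siNC and 142 and 102 FPKM in siYAP/TAZ (log2 change -0.57, adjusted p = 0.0734), and *SLC2A3* at 0.932 and 0.876 FPKM in siNC and 0.459 and 0.884 FPKM in siYAP/TAZ. Neither was called. *HK2* was at 7.17 and 8.52 FPKM in siYAP/TAZ, 51.5% of the siNC mean (log2 change -0.88, standard error 0.139, adjusted p = 0.0111). *PFKP*, the platelet-type phosphofructokinase and the most abundant of the 3 in these cells, was at 76.6 and 76.0 FPKM in siNC and 52.5 and 48.4 FPKM in siYAP/TAZ (log2 change -0.59, standard error 0.121, adjusted p = 0.024). *LDHA* was at 383 and 401 FPKM (log2 change -0.57, adjusted p = 0.0307). *ENO1* was at 774 and 802 FPKM in siNC and 589.7 and 532 FPKM in siYAP/TAZ (log2 change -0.49, standard error 0.0943, adjusted p = 0.0199). In each of these 5 genes, picked as called lower, both siYAP/TAZ values lay below both siNC values. The share of all tested genes that do so was not counted. *LDHB* overlapped siNC, at 302 and 374 FPKM (log2 change -0.08, 95% interval -0.41 to 0.26).

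*PFKL* rose in siYAP/TAZ too, to 18.0 and 19.6 FPKM (log2 change 0.78, standard error 0.125, adjusted p = 0.0111). *NDRG1*, a stress-induced gene used as a marker of hypoxia, was at 9.51 and 9.70 FPKM in siNC and 17.9 and 18.5 FPKM in siYAP/TAZ (log2 change 0.85, standard error 0.224, adjusted p = 0.0483). The oxygen-sensing genes and the kinases had no call in siYAP/TAZ by limma, and 1 of 4 in each group had an unadjusted p under 0.05. *HIF1A* was at 34.0 and 31.6 FPKM, across the siNC values (log2 change 0.02, 95% interval -0.30 to 0.34). *ARNT* was at 6.004 and 5.76 FPKM in siNC and 8.62 and 9.75 FPKM in siYAP/TAZ (log2 change 0.56, adjusted p = 0.0642). *VEGFA* was at 7.29 and 6.34 FPKM, across the siNC values (log2 change -0.01, 95% interval -0.34 to 0.32). The 10 other hypoxia response genes had a median log2 change of 0.25, where all tested genes had 0.08 and those under 10 FPKM in siNC, as all of the 10 but *BNIP3* and *ADM* were, had 0.19. The median was 0.10 without siYAP/TAZ 2. That library stood apart in *BNIP3L*, at 12.8 FPKM against 5.71 FPKM in siYAP/TAZ 1, and in *ALDOC*, the brain-type aldolase, at 34.6 FPKM against 16.1 FPKM.

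The siYAP/TAZ changes followed GC content little, with Spearman coefficients of 0.0601 and -0.0518 across the tested genes and 0.0384 and -0.238 across the 36 in siYAP/TAZ 1 and 2. In siTEAD1/2/3/4 they were 0.298 and 0.178. With GC content and length corrected for, 2 genes were called higher and 7 lower, with *ALDOA* (log2 change -0.35, adjusted p = 0.0371) and *SLC16A3* (-0.67, adjusted p = 0.0233) beside the 5 genes above, against 5.29% of genes higher and 6.14% lower. The counts rested on 3 libraries. Without siNC 1, and likewise without siNC 2, 0 genes were called in either direction by limma (5 higher and 6 lower at an unadjusted p under 0.05 in each case). Without siYAP/TAZ 2, 0 were called higher by limma (6 at an unadjusted p under 0.05) and 2 lower, and *SLC2A1* then had a log2 change of -1.25.

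The knockdowns were then compared with each other, in a contrast whose means leave out siNC. The siNC libraries still entered the estimate of the spread, and without either of them 7 genes were higher and 7 lower. *SLC2A1* and 8 of the 16 enzymes were higher in siHHEX than in siYAP/TAZ, and *HIF1A*, *ARNT*, *EGLN1* and several HIF targets were lower. In all, 10 of the 36 genes were higher in siHHEX (27.8%, against 13.5% of all tested genes) and 10 were lower (27.8%, against 25.9%). The share of genes higher in siHHEX grew with their level, from 5.02% of all tested genes under 10 FPKM in siNC to 22.9% at 10 to 100 FPKM and 42.8% over 100 FPKM. Of the glycolysis and hypoxia genes 1 of 15, 4 of 11 and 5 of 10 were higher at these levels. The share of genes lower in siHHEX ran the other way, at 31.6%, 18.8% and 10.3%, and 7, 2 and 1 of the genes described were lower. Since all tested genes had a median log2 difference of -0.13 in this contrast, the values are also to be read relative to that shift. With the libraries scaled to a common median, 13 genes were higher and 5 lower. By the 2-fold rule only *BNIP3L* was lower (1.28% of all tested genes) and 0 genes were higher (0.234%, 12 at an unadjusted p under 0.05 by limma).

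By role, 8 of the 16 enzymes were higher in siHHEX and 1 was lower, with a median log2 difference of 0.33. The enzymes span all levels, and the medians of all tested genes were -0.23 under 10 FPKM in siNC, 0.046 at 10 to 100 FPKM and 0.23 over 100 FPKM. The higher ones were *ALDOA* (0.67, adjusted p = 0.00439), *ENO1* (0.63, adjusted p = 0.00407), *TPI1* (0.59, adjusted p = 0.0041), *PFKP* (0.51, adjusted p = 0.00925), *PFKL*, *PFKM*, *GAPDH* and *GPI*, and the lower one was *LDHB* (-0.45, adjusted p = 0.0285). *ENO1* was at 853, 844 and 911 FPKM in siHHEX 1, 2 and 3 and at 589.7 and 532 FPKM in siYAP/TAZ. *PFKP* was at 67.6, 71.3 and 78.8 FPKM in siHHEX and at 52.5 and 48.4 FPKM in siYAP/TAZ. None of these siHHEX values reached down to siYAP/TAZ, and for both genes the difference came with values below siNC in siYAP/TAZ. *SLC2A1*, which fell in each knockdown against siNC, differed between them by 0.98 (standard error 0.197, adjusted p = 0.00769). For *LDHA* and *HK2* no difference was shown, at 0.02 (95% interval -0.24 to 0.28) and 0.27 (95% interval -0.02 to 0.56), though *LDHA* was called higher in siHHEX with GC content and length corrected for (0.37, adjusted p = 0.04).

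Of the 4 HIF and hydroxylase genes, 3 were lower in siHHEX, *HIF1A* (log2 difference -0.89, standard error 0.129, adjusted p = 0.00408), *ARNT* (-0.62, adjusted p = 0.0138) and *EGLN1* (-0.57, adjusted p = 0.0103). Of the 10 other hypoxia response genes, 4 were lower in siHHEX and *VEGFA* was higher (0.47, adjusted p = 0.0226). The lower ones were *BNIP3L* (-1.41, adjusted p = 0.00584), *KDM3A*, a histone demethylase (-0.76, adjusted p = 0.0167), *NDRG1* (-0.66, adjusted p = 0.032) and *P4HA1*, a collagen prolyl hydroxylase (-0.64, adjusted p = 0.0188). *KDM3A* was at 2.69, 4.18 and 2.68 FPKM in siHHEX and 4.88 and 7.27 FPKM in siYAP/TAZ. *P4HA1* was at 5.69, 6.14 and 4.18 FPKM in siHHEX and 8.11 and 9.52 FPKM in siYAP/TAZ, with 8.32 and 6.55 FPKM in siNC. The kinases *PDK1* and *PDK3* were lower in siHHEX as well (-0.36 and -0.39, adjusted p = 0.0424 and 0.0401), a direction that turned for *PDK1* with GC content corrected for.

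In this contrast too the direction followed GC content. Of the 21 genes over 50%, 10 were higher and 1 was lower, and of the 15 others 0 were higher and 9 lower, where 26.3% and 3.78% of all GC-rich genes and 1.91% and 46.0% of all GC-poor genes were. With GC content and length corrected for, 8 genes were higher in siHHEX than in siYAP/TAZ (5.53% of all tested genes) and 2 were lower (3.35%). *SLC2A1* (0.93, adjusted p = 0.0282), *ENO1* (0.45, adjusted p = 0.0165), *TPI1* (0.37, adjusted p = 0.0242), *ALDOA*, *GPI* and *VEGFA* (0.51, adjusted p = 0.041) were still called higher, and *PGK1* and *LDHA* joined them. The calls of *PFKP* (0.31, adjusted p = 0.0644), *PFKL* (0.21, adjusted p = 0.264), *PFKM* (0.48, adjusted p = 0.0643) and *GAPDH* (0.15, adjusted p = 0.301) were lost. The lower genes were *NDRG1* (-0.77, adjusted p = 0.0412) and *CA9* (-0.66, adjusted p = 0.045). *HIF1A* (-0.37, adjusted p = 0.0567), *BNIP3L* (-0.88, adjusted p = 0.0742) and *PDK3* (-0.22, adjusted p = 0.241) were not called. Nor were *ARNT* (-0.32, adjusted p = 0.133), *EGLN1* (-0.30, adjusted p = 0.102), *KDM3A* (-0.36, adjusted p = 0.181), *P4HA1* (-0.20, adjusted p = 0.344) and *LDHB* (-0.25, adjusted p = 0.16), and *PDK1* turned to 0.27 (adjusted p = 0.187). Without siYAP/TAZ 2, 4 genes were higher and 2 lower, and without siHHEX 1, 6 were lower.

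**Figure D4:**
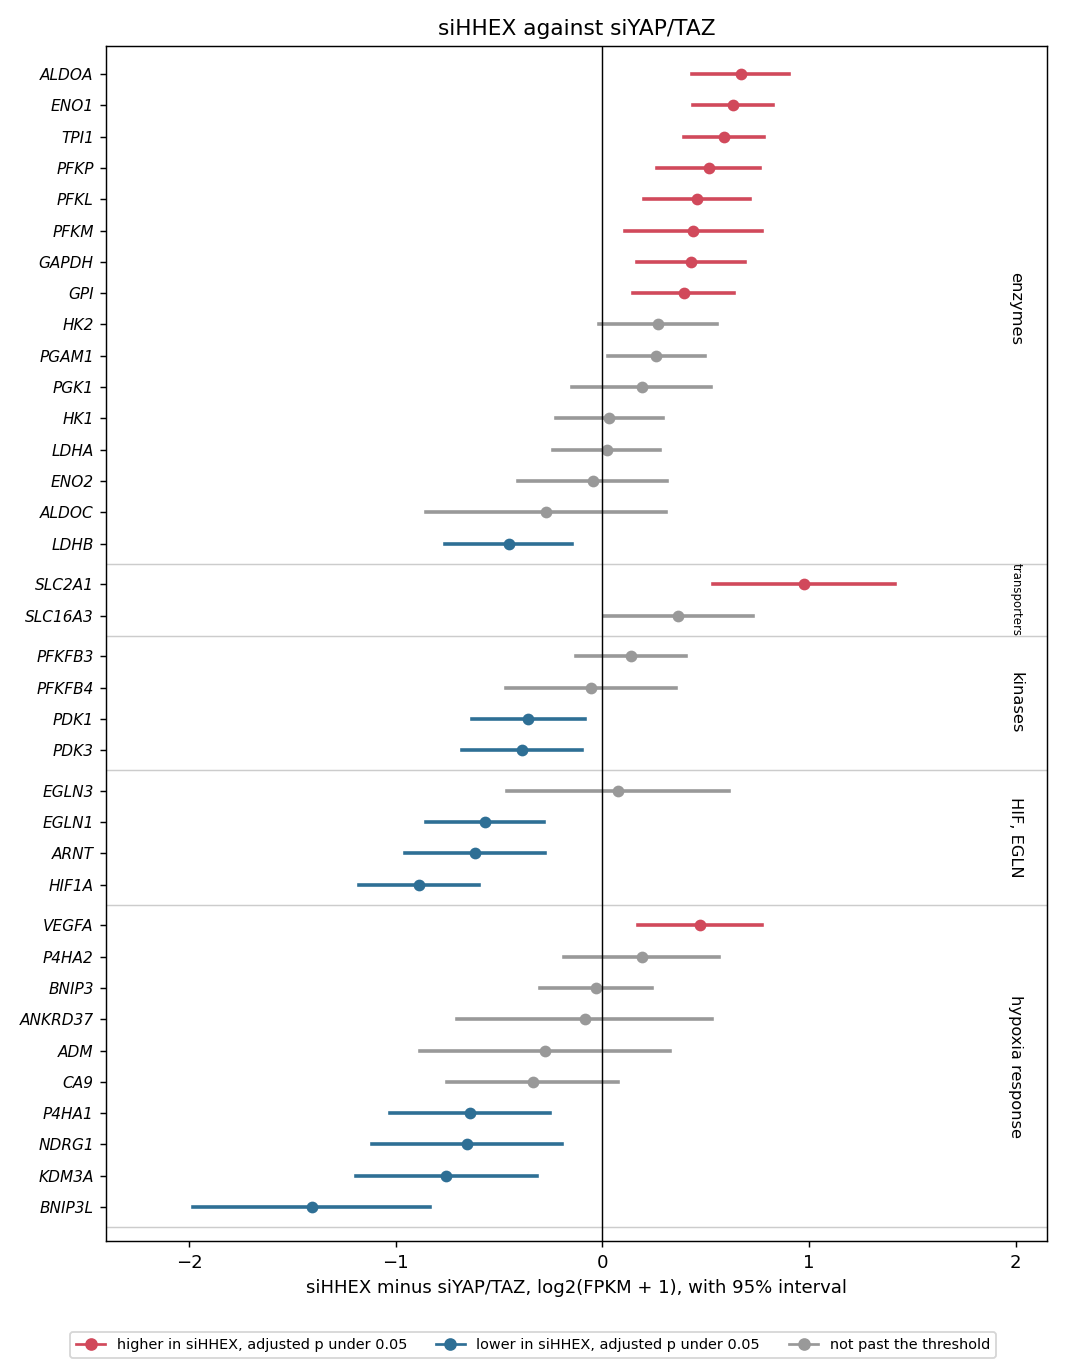
Difference between siHHEX and siYAP/TAZ on the log2(FPKM + 1) scale (x axis, points with 95% intervals) for the 36 tested genes, grouped by role (y axis). Of the 16 enzymes 8 lie above 0 past the threshold and 1 below, and of the 4 HIF and hydroxylase genes 3 lie below.

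The single siTEAD1/2/3/4 library has no replicate and no test, so genes past a 1.5-fold difference from the siNC mean on the log2(FPKM + 1) scale are given. *PFKL* was 1 gene higher by that measure (2.78% of 36, against 4.15% of all tested genes), and *SLC2A1*, *HK2* and *HIF1A* were 3 lower (8.33%, against 2.18%). In plain FPKM, where low values weigh more, *CA9* (205% of the siNC mean), *PFKFB4* (179%), *KDM3A* (159%) and *EGLN3* (152%) were also past 1.5-fold higher, and *ANKRD37* (59.8%) and the untested *SLC2A3* (38.4%) lower. *PFKL* was at 19.4 FPKM there, next to the siYAP/TAZ values of 18.0 and 19.6 FPKM. *SLC2A1* was at 101 FPKM, 53.1% of the siNC mean, and *HK2* at 8.63 FPKM, 56.7% of the siNC mean. *HIF1A* was at 20.2 FPKM, 62.3% of the siNC mean and just above the siHHEX values of 15.3 to 19.4 FPKM, while the siYAP/TAZ values were at the siNC level. The siHHEX and siTEAD1/2/3/4 libraries were also those with low *TEAD1*, and its part in this was not tested. *LDHA*, at 420 FPKM, was below both siNC values, and *TPI1* and *GAPDH*, at 566 and 2497 FPKM, differed from the siNC means by 0.03 and 0.02 on the log2 scale. *VEGFA* was at 5.72 FPKM and *NDRG1* at 8.57 FPKM, each below both siNC values. With either siNC library left out 2 genes were higher, *EGLN3* beside *PFKL* without siNC 1 and *PFKFB4* beside it without siNC 2. All the knockdowns are compared with the same 2 siNC libraries, so their changes from siNC are not independent of each other.

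The shares of *HK2*, *PFKL* and *PFKP* in their families lay apart from siNC in every knockdown library. This was not particular to them. *ALDOC* was at most 4.10% of aldolase in siNC and at least 4.585% in the knockdowns, and *ENO2* at most 0.846% and at least 0.984% of enolase. *PDK1* was at least 50.5% of its pair in siNC and at most 45.8% in the knockdowns, and *PFKFB3* at least 87.0% and at most 86.8%. Of the summed FPKM of both hexokinases, *HK2* made up 60.4% ± 1.60 (SD, n = 2) in siNC, 47.5% ± 2.63 (SD, n = 3) in siHHEX, 43.0% ± 3.71 (SD, n = 2) in siYAP/TAZ and 48.0% in siTEAD1/2/3/4. *PFKL* made up 9.69% ± 0.483 of phosphofructokinase in siNC, 20.7% ± 1.56 in siHHEX, 21.1% ± 2.73 in siYAP/TAZ and 19.9% in siTEAD1/2/3/4. The share of *PFKP* went from 70.5% ± 1.10 in siNC to 57.3% ± 1.94, 56.3% ± 0.607 and 57.6%. The share of *PFKM*, the muscle type, was 19.9% ± 0.616 in siNC, 22.0% ± 1.13 in siHHEX and 22.6% ± 3.34 in siYAP/TAZ, and siYAP/TAZ 2, at 20.3%, lay within the siNC values. In siHHEX this came with a higher sum of the 3 genes (123, 122 and 134 FPKM against 107 and 109 FPKM in siNC) and in siYAP/TAZ with a lower one (94.0 and 85.3 FPKM). For lactate dehydrogenase the *LDHA* share was 62.1% ± 0.982 in siNC and 61.9% ± 1.71 in siHHEX, where both genes fell, and 53.8% ± 2.98 in siYAP/TAZ. Shares of these families were not tested.

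**Figure D5:**
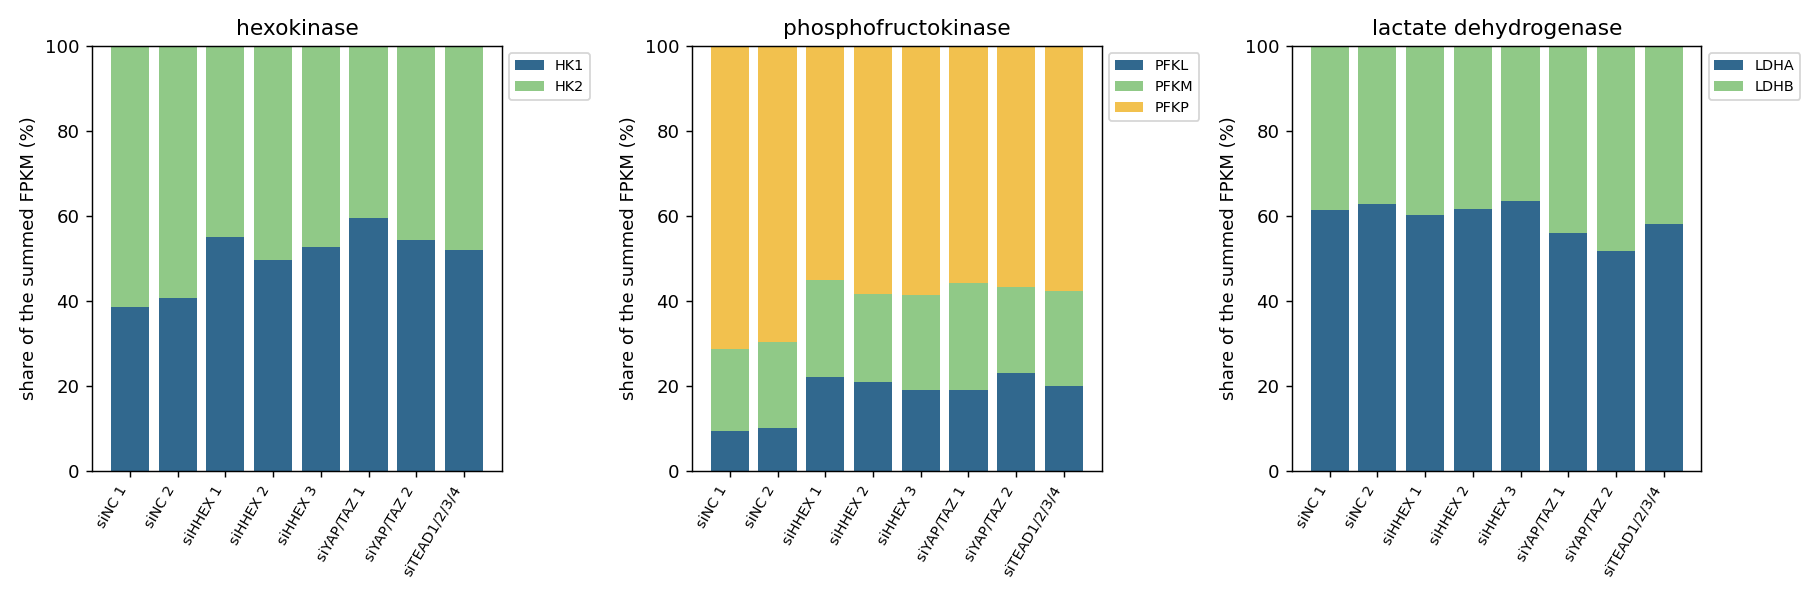
Share of each isozyme in the summed FPKM of its family (y axis, %) in each library (x axis), for hexokinase, phosphofructokinase and lactate dehydrogenase. *HK2* is at 61.5% and 59.2% in siNC and at most 50.3% in the knockdown libraries, and *PFKL* is at 9.35% and 10.03% in siNC and at least 19.0% elsewhere.

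Neighbouring pathways were read from lists of genes by role, whose counts stand beside 16.0% of all tested genes higher and 16.9% lower in siHHEX, and 6.15% and 2.13% in siYAP/TAZ. With 7 to 19 tested genes a list, such counts are of few genes. Of 9 tested genes of the rest of glycolysis, 1 rose and 4 fell in siHHEX, and 2 rose and 0 fell by limma in siYAP/TAZ (0 lower also at an unadjusted p under 0.05). *SLC16A1*, the lactate transporter MCT1, fell most, from 55.8 and 52.3 FPKM in siNC to 24.8, 31.7 and 24.9 FPKM in siHHEX (log2 change -0.98, adjusted p = 0.00387). It was called after the GC correction too, with a smaller change (-0.58, adjusted p = 0.0159). *PGM1*, a phosphoglucomutase that links glucose to glycogen, rose in siHHEX (0.45, adjusted p = 0.0485) and in siYAP/TAZ (0.71, adjusted p = 0.0359), while *PGM2* fell in siHHEX (-0.51, adjusted p = 0.0188). *PKM*, the last kinase of glycolysis, was at 502 and 521 FPKM in siNC and 542, 574 and 667 FPKM in siHHEX (0.21, adjusted p = 0.135). It was higher in siHHEX than in siYAP/TAZ (0.32, adjusted p = 0.0375), though not called once GC content and length were corrected for (0.12, adjusted p = 0.393). Of 9 genes of pyruvate entry into mitochondria, 3 fell in siHHEX, *PDP1* (-0.72, adjusted p = 0.0143), *DLAT* (-0.66, adjusted p = 0.0347) and *DLD* (-0.59, adjusted p = 0.0159), and 0 were called in siYAP/TAZ by limma, with 0 at an unadjusted p under 0.05.

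Of 7 genes of the pentose phosphate pathway, *PGLS* (0.78, adjusted p = 0.0148), *TKT* (0.44, adjusted p = 0.0182) and *TALDO1* (0.31, adjusted p = 0.0402) rose in siHHEX and *RPE* fell (-0.63, adjusted p = 0.0257), and 0 were called in siYAP/TAZ by limma (1 higher and 1 lower at an unadjusted p under 0.05). Of 12 tested regulators of HIF, 3 rose and 2 fell in siHHEX, and 0 were called in siYAP/TAZ by limma (1 higher and 1 lower at an unadjusted p under 0.05). The oxygen-sensing hydroxylase *EGLN2* (PHD1) rose (0.73, adjusted p = 0.00921) where *EGLN1* fell, at 24.3 and 24.0 FPKM in siNC and 36.7, 37.6 and 48.6 FPKM in siHHEX. *HIF1AN* (FIH), the asparaginyl hydroxylase of HIF-1α, rose as well, from 17.4 and 18.6 FPKM to 22.1, 22.3 and 25.4 FPKM (0.35, adjusted p = 0.0458). *CITED2*, which competes with HIF-1α for its coactivator, fell (-0.76, adjusted p = 0.0259), as did *CUL2*, the scaffold of the ligase that marks HIF-1α for degradation (-0.71, adjusted p = 0.00675). Of 19 tested further hypoxia response genes, 3 rose and 3 fell in siHHEX, and 2 rose and 0 fell by limma in siYAP/TAZ (1 lower at an unadjusted p under 0.05). *DDIT4* (REDD1), an inhibitor of mTORC1, was at 12.5 and 12.7 FPKM in siNC, 48.5, 26.2 and 27.6 FPKM in siHHEX (1.31, adjusted p = 0.00843), 39.1 and 53.7 FPKM in siYAP/TAZ (1.78, adjusted p = 0.00996) and 21.0 FPKM in siTEAD1/2/3/4. *GYS1*, muscle-type glycogen synthase, rose in siHHEX (0.87, adjusted p = 0.00387) and siYAP/TAZ (0.58, adjusted p = 0.027). *GBE1*, the glycogen branching enzyme, fell in siHHEX (-0.53, adjusted p = 0.0145). Of the genes named from these lists, *SLC16A1*, *GYS1* and *HIF1AN* were also called in siHHEX once GC content and length were corrected for. The other calls in siHHEX were lost. *CITED2* (-0.72, adjusted p = 0.0634), *DDIT4* (0.96, adjusted p = 0.0541) and *PGM1* (0.36, adjusted p = 0.135) stayed closest to their size before. Changes of *PDP1* (-0.30), *DLAT* (-0.26), *DLD* (-0.14), *PGM2* (-0.096) and *GBE1* (-0.20) shrank more. So did those of *PGLS* (0.24), *TKT* (0.17), *TALDO1* (0.011), *RPE* (-0.16), *EGLN2* (0.33) and *CUL2* (-0.25).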

How the data were processed

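The authors extracted RNA with Trizol and deposited 1 FPKM value per gene for each of the 8 libraries. The submitters' processing notes name Trimmomatic 0.36, HISAT2 2.0.5, Cufflinks 2.2.1 and HTSeq 0.9.1, and the genome build is not given in the sources used here. Library and group came from the labels. The 37 genes, the neighbouring lists and the tests were chosen with earlier results of these data known. FPKM are not counts, so the planned count test and the DESeq named by the study were not used.

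Genes reaching 1 FPKM in 2 or more libraries (10677 of 20030 rows; 27 of the 20030 carry a date for a name) were fitted as log2(FPKM + 1) with limma 3.58.1 in R 4.3.3, in 1 fit of 8 libraries and 4 groups with a variance trend, and p-values were Benjamini-Hochberg adjusted over all of them. A fold change on this scale understates that of low genes. GC content and length came from GENCODE 44 canonical transcripts (GRCh38, 99.4% of tested genes), and the corrected fit removed a spline of 4 degrees of freedom on each. All 37 genes could be named, with values in every library for the knockdown targets, *VEGFA* and up to 6 called genes in each direction and comparison with the largest change, and up to 3 called genes per direction and comparison of each other list. Values of the remaining genes named were chosen after they were seen. The alternatives were another pseudocount, no filter, only the groups compared, a replicate block, median scaling, the GC and length correction, leaving out each library, and a 2-fold rule. Other steps used Python 3.11.15, numpy 2.4.6, pandas 2.3.3, scipy 1.17.1 and matplotlib 3.10.9. Some results of the neighbouring lists are not reported here.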

Additional observations from a re-analysis of the deposited data

How the results depend on the processing

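Of the results of single genes under each alternative, 378 kept their direction and side of the threshold, 204 lost significance and 6 changed sign. These cover the calls and *VEGFA* in siYAP/TAZ, which was not called and gave 12 of the 378 and 2 of the 6. The call of *PFKL* in siHHEX held under all 14 alternatives. The number of libraries, 1 to 3 per group, limited every test, and the read depth was unknown. Leaving out 1 siNC library left that group with 1, which was assumed to vary like the others. Same-numbered libraries did not deviate together over genes (correlations -0.0366, -0.0251 and -0.0434). Numbered libraries of a knockdown also differ in siRNA, so these values cannot show whether same-numbered libraries shared a culture or batch. The cause of the changes below was not tested.

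In siHHEX the count of higher genes was 3 with the replicate block, 1 with the GC and length correction, 1 with both, 1 by the 2-fold rule, and 1 to 9 with a library left out. The count of lower genes was 4 with the block, 5 with median scaling, 3 with the correction, 0 with both (10 at an unadjusted p under 0.05 by limma), 0 by the 2-fold rule, and 0 to 8 with a library left out. In siYAP/TAZ the higher genes were 1 with a pseudocount of 0.1, 1 with no filter, 4 with only the groups compared, 1 with median scaling, 0 by the 2-fold rule, and 0 to 4 with a library left out. The lower genes were 3 with no filter, 1 by the 2-fold rule, and 0 to 6 with a library left out, and the block gave 2 higher and 5 lower. Between siHHEX and siYAP/TAZ the higher genes were 0 with the correction and block (13 at an unadjusted p under 0.05), 0 by the 2-fold rule, and 4 to 10 with a library left out. The lower genes were 6 with the block, 5 with median scaling, 2 with the correction, 0 with both (7 at an unadjusted p under 0.05), 1 by the 2-fold rule, and 2 to 10 with a library left out. In siTEAD1/2/3/4 the higher genes were 5 with a pseudocount of 0.1, and on the log2(FPKM + 1) scale 2 with an siNC library left out and 0 past 2-fold, beside 0 lower past 2-fold (*CA9* was at 205% of the siNC mean in plain FPKM).

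The median log2 change of the enzymes in siHHEX was 0.31 with median scaling, -0.014 with the correction and 0.21 to 0.26 with a library left out. That of the other hypoxia response genes was 0.072 with the correction, and that of all 36 genes 0.075 with median scaling. In siYAP/TAZ the enzymes were at -0.20 with median scaling, -0.18 with the correction and -0.14 to -0.10 with a library left out. The other hypoxia response genes were at 0.42 with a pseudocount of 0.1, 0.15 with median scaling, 0.18 with the correction and 0.10 to 0.22 with a library left out. All 36 genes were at -0.13, -0.12 and -0.051 to 0.021 under the last 3 of these. Between siHHEX and siYAP/TAZ the enzymes were at 0.35 with a pseudocount of 0.1, 0.51 with median scaling and 0.30 to 0.35 with a library left out, the other hypoxia response genes at -0.53 with that pseudocount, and all 36 genes at 0.20 with median scaling, 0.11 with the correction and -0.0089 to 0.10 with a library left out. In siTEAD1/2/3/4 the enzymes were at -0.093 with median scaling and -0.087 with the correction, the other hypoxia response genes at -0.049 and 0.086 under the same settings and at 0.080 to 0.12 with an siNC library left out, and all 36 genes at -0.052, -0.056 and 0.023 to 0.028.

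The sign changed for *PDK1* in siHHEX with the correction (0.073) and with the block added (0.056), for *PDK1* between siHHEX and siYAP/TAZ under the same settings (0.27 and 0.25), and for *VEGFA* in siYAP/TAZ without siNC 1 (0.026) and without siYAP/TAZ 2 (0.077).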
